A study of Mus musculus with 9 samples.

Results

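The genes for serum amyloid A (Saa1, Saa2, Saa3 and Saa4), haptoglobin (Hp) and orosomucoid (Orm1, Orm2 and Orm3) encode plasma proteins of the acute phase response, and the binding of XBP1 around them was described here from 8 lists of chromatin immunoprecipitation and sequencing (ChIP-seq) peaks of mouse liver. The members were the peaks whose midpoint lay in 1 of 3 windows of the mm9 build, set by position and not by any measured value. The windows were 80 kb at the Saa cluster (chr7:53950001-54030000), 35 kb at Hp (chr8:112085001-112120000) and 50 kb at the Orm cluster (chr4:62990001-63040000). They held 67 of the 64078 peaks of all lists.

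Livers of C57Bl6-J wild-type mice were used, with operations at 8 weeks of age, and each condition had 1 library. In 3 livers XBP1 had been silenced 7 days earlier with a short hairpin RNA delivered by adenovirus (shXBP1): 6 h after removal of most of the liver (partial hepatectomy), 48 h after it, and in the basal state. Unsilenced livers were taken 6 h or 48 h after hepatectomy, 6 h or 48 h after a sham operation, in which the abdomen was opened and the lobes were only lifted, and as basal liver, labelled normal. Per the labels' protocols, virus was given after clodronate liposomes, which deplete macrophages, and the labels do not say whether unsilenced livers received a control virus. Silencing, virus and clodronate therefore cannot be told apart in those livers. Nor do the labels say whether a library was made from 1 animal or a pool. Since conditions were not replicated, no difference could be tested against a spread between animals, and all intervals below cover counting error only. Read depth was not given, so fewer peaks and a shallower library cannot be told apart. Peak lists hold no expression values, and the tissue label was not checked against markers.

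In the acute phase response, hepatocytes change the set of proteins they secrete into blood within hours of injury or inflammation, driven mainly by cytokines of the interleukin-6 and interleukin-1 families through STAT3, NF-κB and C/EBP factors. Serum amyloid A is an apolipoprotein of high-density lipoprotein, haptoglobin captures free haemoglobin, and orosomucoid, or α1-acid glycoprotein, is a glycosylated carrier of small molecules in plasma. Saa1 and Saa2 are the classical inducible forms in mouse liver, Saa3 is also made by macrophages and adipose tissue, and Saa4 is the constitutive form. All are secreted, so their synthesis passes through the endoplasmic reticulum, whose folding capacity XBP1 controls in the unfolded protein response.

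The gene table at hand, of GRCm38.p6, gave the order Saa3, Saa4, Saa1, Saa2 on chromosome 7, between Saal1 and Hps5. On chromosome 4 the order was Orm1, Orm3, Orm2, between Col27a1 and Akna. Hp lies on chromosome 8 between Txnl4b and Dhodh. Peaks were not assigned to a single gene of a cluster, because the peaks are on mm9 and the table is not. Older names of Saa1 and Saa2 are crossed, each being listed as a synonym of the other.

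RefSeq promoters (250 bases before to 50 after the start of the gene, GRCm38.p6) matched 6 of the 8 genes: Saa1, Saa2, Saa3, Saa4, Orm2 and Orm3. Hp and Orm1 are named only. The paralog pairs are shown because likeness between copies can limit how short reads are placed. Capitals mark matches to TTGCNNAA, letters of a C/EBP recognition sequence, on either strand.
Saa1, chr7:46742931-46743230, minus strand: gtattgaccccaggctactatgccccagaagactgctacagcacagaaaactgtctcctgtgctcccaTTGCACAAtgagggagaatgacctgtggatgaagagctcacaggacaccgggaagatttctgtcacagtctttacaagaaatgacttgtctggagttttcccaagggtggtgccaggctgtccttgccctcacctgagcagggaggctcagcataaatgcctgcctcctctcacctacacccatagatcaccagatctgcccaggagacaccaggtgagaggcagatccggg
Saa2, chr7:46751583-46751882, plus strand: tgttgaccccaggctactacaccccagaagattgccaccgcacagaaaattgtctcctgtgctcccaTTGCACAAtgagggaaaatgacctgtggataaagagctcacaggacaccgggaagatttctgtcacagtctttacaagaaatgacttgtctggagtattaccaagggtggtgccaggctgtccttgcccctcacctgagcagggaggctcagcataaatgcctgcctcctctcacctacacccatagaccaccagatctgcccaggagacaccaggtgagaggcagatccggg
Orm2, chr4:63362199-63362498, plus strand: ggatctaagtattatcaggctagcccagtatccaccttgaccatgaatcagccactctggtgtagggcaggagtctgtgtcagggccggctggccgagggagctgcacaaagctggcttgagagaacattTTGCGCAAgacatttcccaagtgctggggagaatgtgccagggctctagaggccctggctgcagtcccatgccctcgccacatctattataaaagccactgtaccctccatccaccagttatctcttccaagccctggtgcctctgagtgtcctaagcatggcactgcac
Orm3, chr4:63355908-63356207, plus strand: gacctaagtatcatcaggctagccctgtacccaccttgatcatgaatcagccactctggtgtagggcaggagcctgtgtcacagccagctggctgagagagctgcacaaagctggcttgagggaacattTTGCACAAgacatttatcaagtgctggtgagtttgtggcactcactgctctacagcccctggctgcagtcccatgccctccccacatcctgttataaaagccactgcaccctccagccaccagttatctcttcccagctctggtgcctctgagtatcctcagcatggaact

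The promoters of Saa1 and Saa2 were identical at 287 of 299 aligned bases (96.0%), with 65 bases as the longest identical run. Those of Orm2 and Orm3 were identical at 263 of 295 aligned bases (89.2%), with a run of 32 bases. The other Saa pairs lay between 49.1% and 60.1%. How reads that match several places were handled is not given in the sources used here. Peaks within the Saa and Orm clusters may therefore be uncertain as to the copy they come from, where copies are alike. Likeness was read in these promoters only, Orm1 was not compared, and no peak was placed on a promoter. The effect was not tested. All 6 promoters held TTGCNNAA, which was found in 10.8% of the 32851 RefSeq promoters in the table. Saa3 had it once, as TTATGCAA, and Saa4 had TTGCCAAA and TTGAGCAA. None of the 6 held ACGT (30.9% of all promoters), CCACG (32.8%), TGACGTGG (0.676%) or the endoplasmic reticulum stress element, CCAAT and CCACG set 9 bases apart (0.119%). Nor did any hold TTCCNGGAA of STAT3 (1.15%) or GGGNNTTTC of NF-κB (4.36%). Both strands were searched. ACGT also lies within TGACGTGG, and CCACG within the stress element. These matches describe letters in 300 bases only, and the peaks themselves, on mm9, were not searched.

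At 6 h after an operation without silencing, all 3 loci carried a series of XBP1 peaks, whether liver tissue had been removed or not. The windows held 1 peak in basal liver. At 6 h they held 30 peaks after hepatectomy and 26 after sham, and at 48 h 5 after hepatectomy and 1 after sham. At 6 h the Orm cluster had 12 peaks after hepatectomy and 10 after sham, Hp had 9 in each, and the Saa cluster had 9 and 7. The lists also differ in length: these peaks made up 0.0403% of the 2482 basal peaks. At 6 h they made up 0.136% of the 22071 hepatectomy peaks and 0.113% of the 23087 sham peaks. At 48 h the shares were 0.0693% of 7212 hepatectomy peaks and 0.0216% of 4622 sham peaks.

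**Figure D1:**
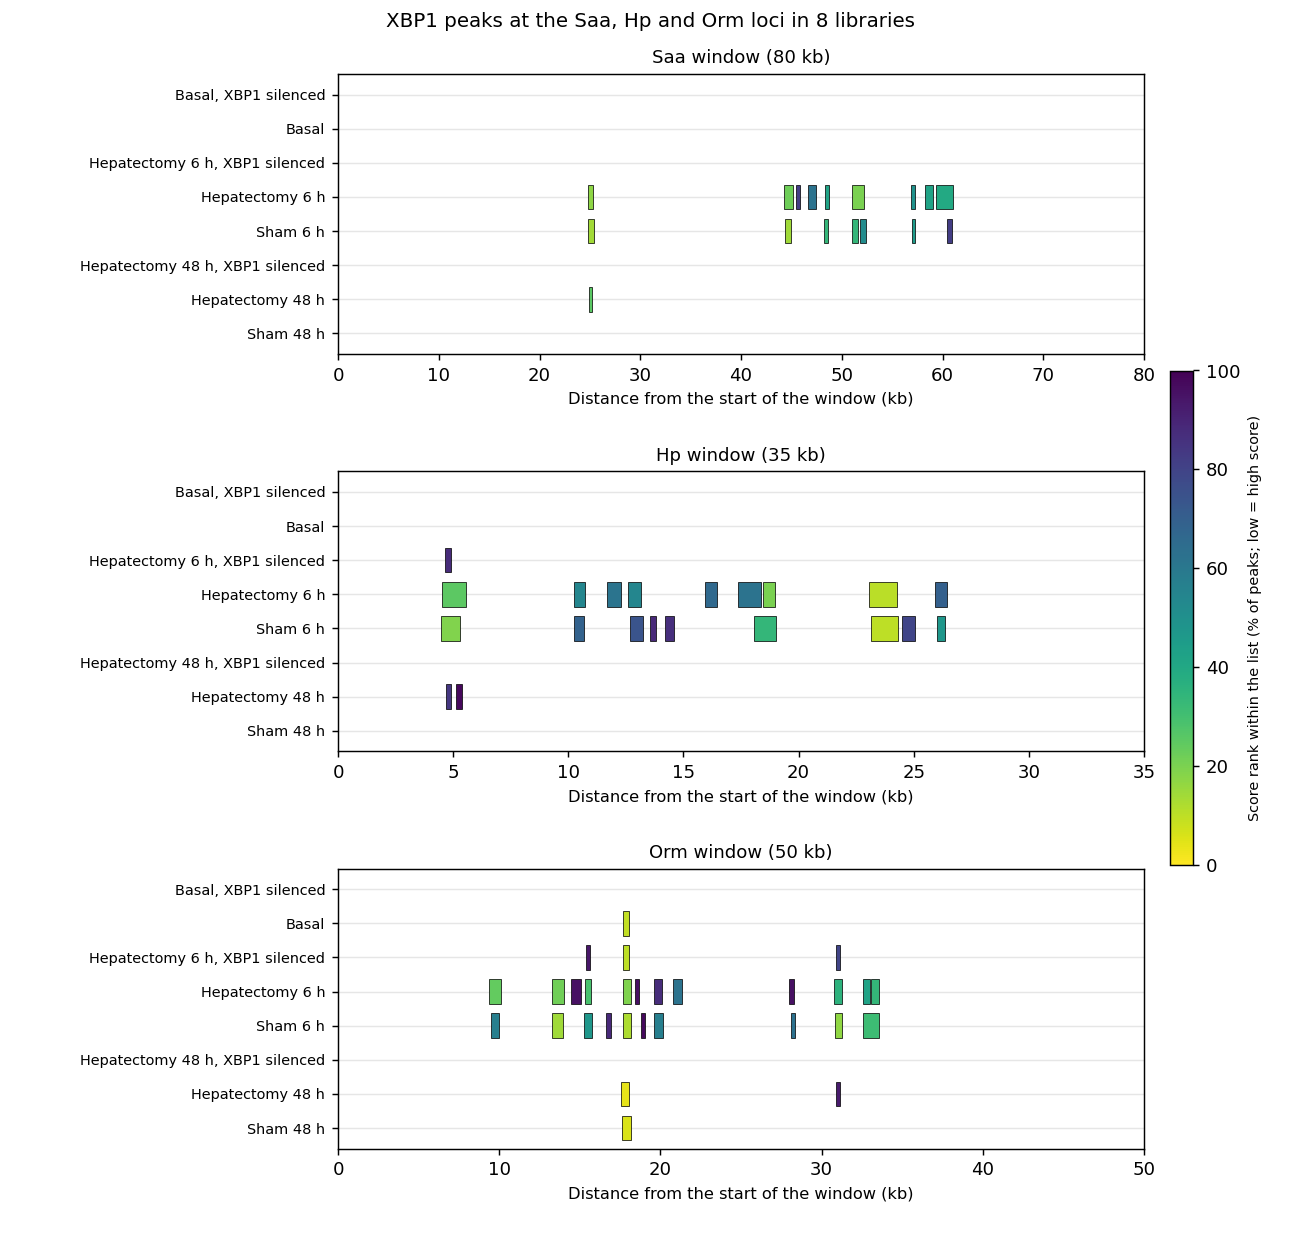
Peaks of the 8 libraries in the Saa, Hp and Orm windows, drawn to scale as boxes against the distance from the start of each window in kb, with the colour giving the score rank within the library's own list in percent (low means a high score). Both unsilenced 6 h libraries hold between 7 and 12 peaks per window, most at the same places, and 1 place in the Orm window has a peak in 6 libraries.

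**Figure D2:**
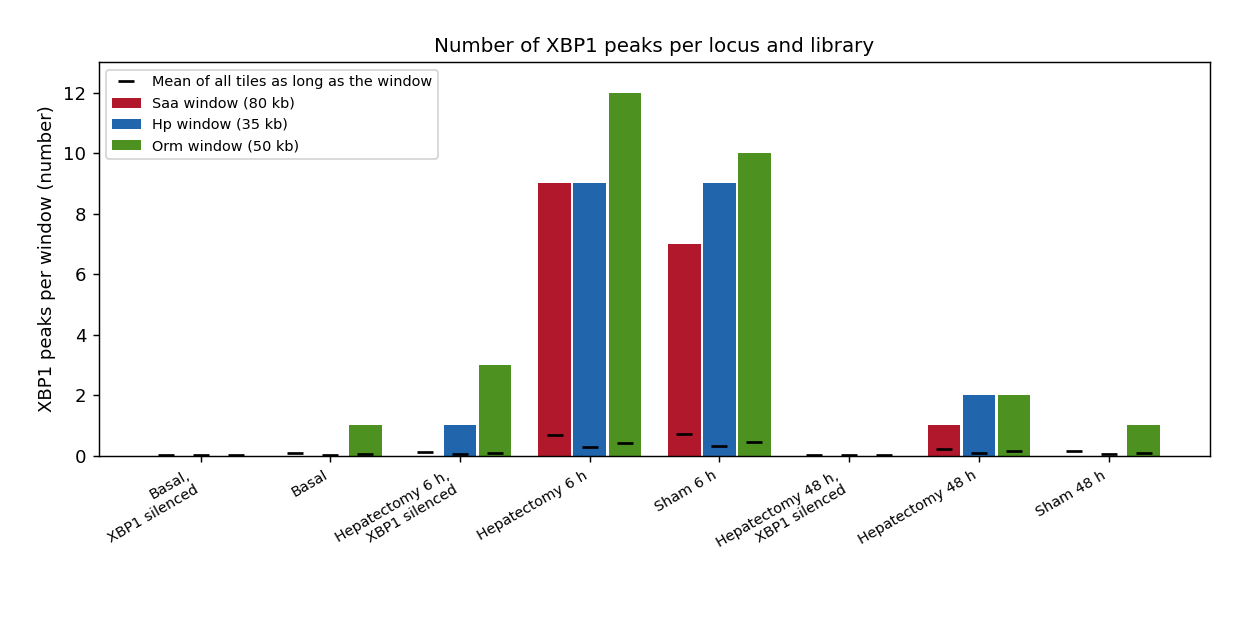
Number of XBP1 peaks in the Saa (80 kb), Hp (35 kb) and Orm (50 kb) windows in each library as bars, with a black dash at the mean number over all genome tiles as long as the window. At 6 h the Orm window holds 12 peaks after hepatectomy, 10 after sham and 3 in the silenced library, while the tile means stay below 1 in each library.

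These numbers were high beside all genome stretches of this length. The genome was divided into tiles as long as each window, up to the last peak of each chromosome. In the 6 h hepatectomy list the mean was 0.419 peaks per 50 kb tile, 0.293 per 35 kb tile and 0.670 per 80 kb tile. Of 52630 tiles of 50 kb, 8 (0.0152%) held at least the 12 peaks of the Orm window. Of 75186 tiles of 35 kb, 31 (0.0412%) held at least the 9 peaks of the Hp window, and of 32887 tiles of 80 kb, 157 (0.477%) held at least the 9 of the Saa window. In the 6 h sham list the shares were 0.0494% for the Orm window, 0.0333% for Hp and 1.42% for Saa. The Saa window thus stood out less than the others, and its mean density, 1.13 peaks per 10 kb after hepatectomy, was lower than the 2.57 of Hp and 2.40 of Orm. These densities are over windows of unequal length, and 8 of the 9 Saa peaks lay within 16.8 kb of the 80 kb. A lower density over the window is therefore not a sparser spacing of the peaks themselves. All tiles were counted, with or without genes, and the median tile held 0 peaks. A comparison with other bound loci only was not made, and the members were chosen with earlier results of these data known.

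The Hp and Orm peaks and most Saa peaks formed compact groups, and those of Hp and Orm had empty surroundings. After hepatectomy the Orm peaks of the 6 h library spanned 24.2 kb, of which 25.1% was covered by peaks, and the Hp peaks spanned 21.9 kb, of which 29.1% was covered. Windows of the same length on either side of the Orm and Hp windows held no peak in that library. The nearest outside peak lay 71258 bp away on the left and 165297 bp on the right of the Orm window, and 566678 bp and 96596 bp from the Hp window. In the sham library a low-scoring peak lay 12180 bp to the right of the Hp window (score 7.67, rank 22208). At the Saa cluster 8 of the 9 peaks lay within 16.8 kb, of which 38.8% was covered, and the remaining one stood alone on the left. In the sham library the Saa peaks without the lone one covered 17.8% of their span. All Hp peaks covered 25.4% and all Orm peaks 20.8% of theirs in that library. The 80 kb adjoining the Saa window held 3 peaks on the left and 5 on the right after hepatectomy, against 2 and 5 after sham. The nearest of these began 20842 bp past the right edge of the Saa window and had a score of 123.89 (rank 1000), above every peak inside the windows. That outside site (chr7:54050842-54051823) was also called in the silenced 6 h library (score 22.44), in the sham library of 6 h (51.22) and in basal liver (18.1), and at 48 h after hepatectomy (10.42) and after sham (38.54).

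The peaks within the loci had middling scores. The score, the authors' own value per peak (read as −log10 of a p-value), was ranked within each list, because the scale may differ between lists. Among the 30 peaks 6 h after hepatectomy the median score was 21.94 (lowest 7.77, highest 70.25), beside 19 over the whole list. Among the 26 sham peaks it was 16.39 (7.04 to 46.12), beside 16.32. None of the 30 hepatectomy peaks and 1 of the 26 sham peaks stood in the highest 10% of its list by rank, a class that held 10.1% of all hepatectomy peaks and 10.3% of all sham peaks, ties included. Beside all tiles and the whole lists, the loci therefore stood out by the number of peaks and not by their scores. The peaks were somewhat wide, with a median of 517 bp beside 429 bp over the list after hepatectomy, and 511.5 bp beside 412 bp after sham. Between neighbouring peaks inside a window the median gap was 951 bp after hepatectomy and 1979 bp after sham.

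**Figure D3:**
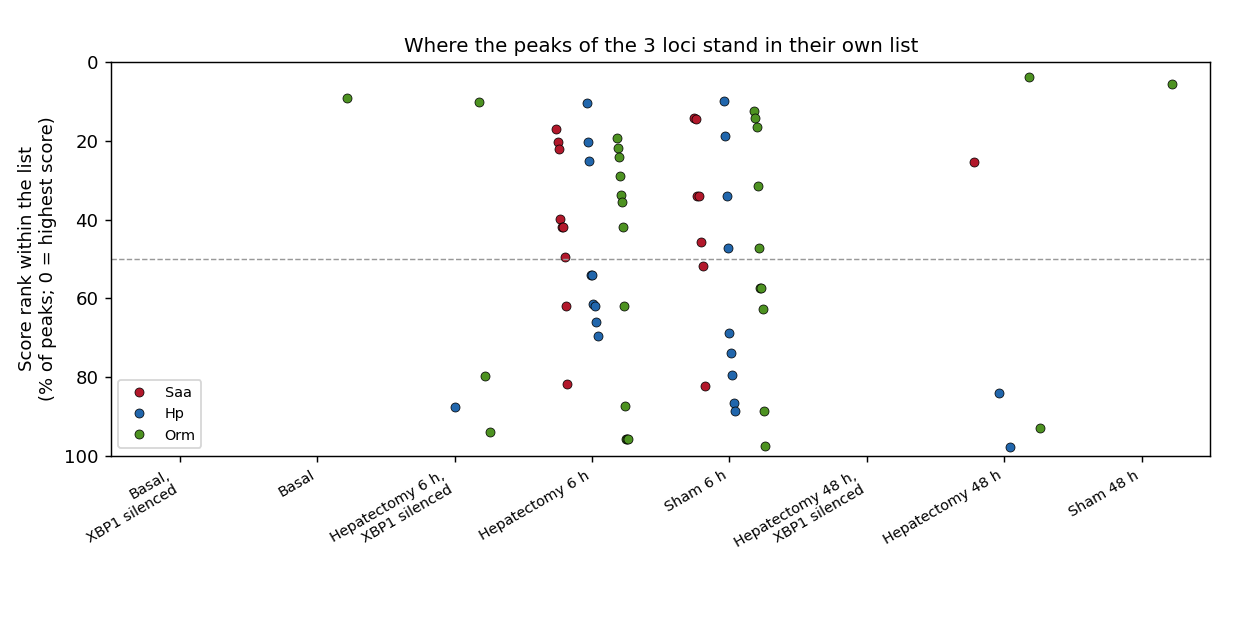
Score rank of each peak of the Saa, Hp and Orm windows within its own list, in percent of the list (0 is the highest score, drawn at the top), by library; the dashed line marks 50%. The 6 h peaks are spread over most of the scale, with the best of the unsilenced ones at 10.4% after hepatectomy and 9.83% after sham (both at Hp), and the site found at 48 h after both operations lies at 3.61% and 5.54%.

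The 67 peaks fell into 33 separate sites when overlapping peaks of all lists were joined: 9 at Saa, 11 at Hp and 13 at Orm, numbered by position below. Scores given for them belong to their own list, and a higher score in 1 list need not be a better rank. Every site had a peak in at least 1 of the 6 h unsilenced libraries, and 20 had a peak in both. A peak after hepatectomy but not after sham was seen at 8 sites, and the reverse at 5. In these lists 28 of the 33 sites had a peak at 6 h without silencing and nowhere else. Over the genome the same held for 68.2% of the 27803 sites with a peak in a 6 h unsilenced list, so most sites of these lists shared that pattern. The sites with a peak in only 1 of the 6 h libraries had lower median scores than the shared ones. The median was 14.43 (7.77 to 21.94) at the 8 hepatectomy sites and 8.93 (7.04 to 10.93) at the 5 sham sites. At the 20 shared sites the median best score was 28.89 after hepatectomy and 21.13 after sham. The highest hepatectomy-only score, 21.94 at Saa site 8, lay above the list median of 19.

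The Saa cluster held 9 sites, of which 6 had a peak after both operations at 6 h and 3 after hepatectomy only. Outside the 6 h unsilenced lists a peak was called at 1 of them. Site 1, the lone site on the left (chr7:53974815-53975445), had the best score of the cluster: 48.88 after hepatectomy (rank 3730) and 38.03 after sham (rank 3237) at 6 h, and 17.46 (rank 1833) 48 h after hepatectomy. No peak was called there 48 h after sham, in basal liver or in any silenced liver. The other 8 sites lay together. Site 6 (chr7:54001051-54002363) had a score of 41.78 after hepatectomy, where 1 peak of 1138 bp was called, and of 21.13 and 15.26 after sham, where 2 shorter peaks were called. Site 2 (chr7:53994314-53995118) had 38.97 after hepatectomy and 36.82 after sham. Both operations also gave a peak at site 5 (21.94 after hepatectomy, 21.13 after sham) and site 7 (19.37 and 17.39). At site 9 the hepatectomy peak was 1746 bp wide with a score of 23.16, and the sham peak was 493 bp wide with 9.92. Sites 3, 4 and 8 had a peak after hepatectomy only, with scores of 10.69, 14.94 and 21.94.

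At Hp the highest-scoring site had the best rank of the windows in each of the unsilenced 6 h lists. Site 9 (chr8:112108052-112109323) had a score of 70.25 after hepatectomy (rank 2302, 10.4% of the list) and 46.12 after sham (rank 2270, 9.83%). It had no peak in the other 6 lists. Site 8 (chr8:112102359-112104037) held 2 peaks after hepatectomy, with scores of 14.94 and 41.78, and 1 after sham, with 21.13. Site 1 (chr8:112089485-112090543) was the only Hp site found outside the 6 h unsilenced libraries. Its score 6 h after hepatectomy was 8.97 in the silenced library (rank 3789 of 4325), against 34.85 in the unsilenced one, and it was 31.38 after sham. At 48 h after hepatectomy it was split into 2 peaks of 8.3 and 6.31. Sites 2 and 4 each had a score of 17.2 after hepatectomy, against 11.98 and 11.21 after sham. Site 11 went the other way, with 13.19 after hepatectomy and 16.39 after sham. Sites 3 and 7 had a peak only after hepatectomy (15.03 and 13.92), and sites 5, 6 and 10 only after sham (8.93, 9.34 and 10.93).

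The Orm cluster held the site with the widest presence. Site 6 (chr4:63007581-63008194) carried a peak in 6 of the 8 lists, all but silenced basal liver and silenced liver 48 h after hepatectomy. Its score 6 h after hepatectomy was 39.36 in the silenced library, against 43.38 in the unsilenced one. It was 42.03 in basal liver and 58.85 at 48 h after hepatectomy. After sham it was 40.69 at 6 h and 66.2 at 48 h. It was the only peak of the 3 loci in basal liver (rank 223 of 2482) and 48 h after sham (rank 256 of 4622). Its rank within the list was 437 of 4325 in the silenced 6 h library, against 4250 of 22071 in the unsilenced one. It was 260 of 7212 at 48 h after hepatectomy and 2857 of 23087 at 6 h after sham. In percent of the list, the rank was 3.61% at 48 h after hepatectomy and 5.54% at 48 h after sham, and 19.3% and 12.4% in the 6 h lists of these operations.

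The other Orm sites followed the 6 h pattern. Site 2 (chr4:63003283-63004001) had 40.06 after hepatectomy (21.7% of the list) and 37.64 after sham (14.2%), and no peak elsewhere. Site 1 (chr4:62999368-63000107) had 36.22 after hepatectomy (24.0%) and 14.14 after sham (57.3%). Site 13 (chr4:63022572-63023577) was split after hepatectomy into peaks of 21.94 and 26.94 and was 1 peak of 22.36 after sham. Peaks at sites 4 and 12 were also called after silencing. Site 4 (chr4:63005247-63005753) had 8.01 in the silenced library, against 30.84 in the unsilenced one, and 16.39 after sham. Site 12 (chr4:63020791-63021274) had 9.97 in the silenced library, against 25.66 in the unsilenced one. It had 34.08 after sham at 6 h and 7.29 at 48 h after hepatectomy. Sites 9 and 11 had scores of 9.69 and 7.77 after hepatectomy, against 14.14 and 13.05 after sham. Sites 3, 7 and 10 were called only after hepatectomy (7.99, 7.77 and 14.94), and sites 5 and 8 only after sham (8.93 and 7.04).

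The silenced library held 4 peaks in the 3 windows 6 h after hepatectomy, against 30 in the unsilenced one. The whole lists held 4325 and 22071 peaks, and silencing, virus, clodronate and read depth cannot be told apart here. Orm had 3 against 12, Hp 1 against 9, and the Saa cluster none against 9. All 4 silenced peaks lay on unsilenced ones, where the share over the whole silenced list was 98.2%. Of the 30 unsilenced peaks 4 had a counterpart (13.3%, 95% Clopper-Pearson interval 3.76 to 30.7%), beside 18.9% of all peaks of that list. For Saa alone it was 0 of 9 peaks, which allows up to 33.6%. Since kept shares rise with score, the whole list was also read at the rank bins of the members (a choice made after seeing the data), which gave 15.3%, or 4.58 of 30 peaks. The share kept at these loci was therefore not distinguishable from that of the whole list. Scores of the kept peaks were 39.36 at Orm site 6 and between 8.01 and 9.97 at the other 3 sites. With a score of at least 10 required, Orm site 6 alone was left. Silenced basal liver had no peak in the windows, and the basal peak of Orm site 6 thus had no counterpart, beside 4.75% of all basal peaks with one. Silenced liver 48 h after hepatectomy had none either: 0 of the 5 unsilenced peaks had a counterpart (up to 52.2%), beside 0.915% of the list. Those silenced lists held 177 and 102 peaks in all, so the absence of a peak in 3 windows says little.

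Hepatectomy and sham gave largely the same sites at 6 h. A sham counterpart was found for 22 of the 30 hepatectomy peaks (73.3%, 54.1 to 87.7%), beside 76.9% of the whole list and 78.5% at the members' rank bins. A hepatectomy counterpart was found for 21 of the 26 sham peaks (80.8%, 60.6 to 93.4%), beside 74.1% of the list. By locus, the hepatectomy peaks with a sham counterpart numbered 6 of 9 at Saa, 7 of 9 at Hp and 9 of 12 at Orm. All 7 sham peaks of the Saa cluster lay on a hepatectomy peak. At the 20 sites with a peak in both libraries the best rank, in percent of the list, was better after hepatectomy at 7 and after sham at 13, while its median was 31.4% after hepatectomy and 33.9% after sham. No order of the operations follows from these ranks. Peaks shared by both 6 h libraries and by no other list made up 17 of the 30 hepatectomy peaks, beside 40.5% of the list, and 16 of the 26 sham peaks, beside 39.2%. Both shares at the loci were above those of the lists, but they describe the same 15 sites and are not independent. No interval was computed for them, and a difference from the lists was not tested. At 48 h, 1 of the 5 hepatectomy peaks, Orm site 6, overlapped a sham peak, beside 47.1% of the list. The interval of that share was 0.505 to 71.6%.

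**Figure D4:**
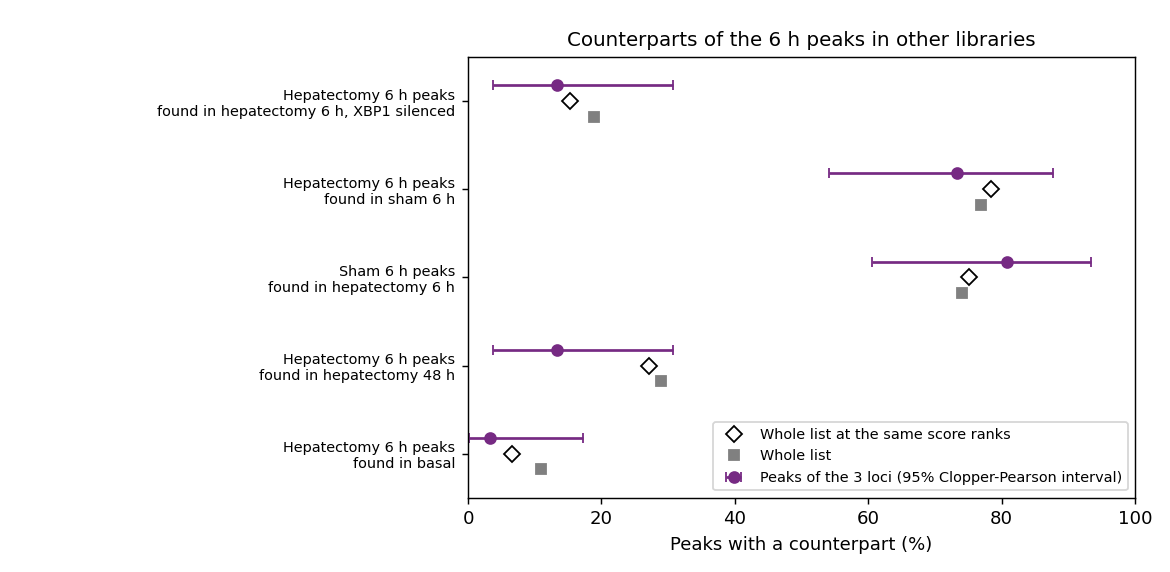
Share of 6 h peaks with a counterpart in another library, in percent, for the peaks of the 3 loci (purple points with 95% Clopper-Pearson intervals), the whole list read at the same score ranks (open diamonds) and the whole list (grey squares). The open diamonds lie inside the interval of the loci in all 5 rows; the whole lists do so too, from 10.9% for basal to 76.9% for sham.

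Most peaks of these loci at 6 h had no counterpart in basal liver or at 48 h, as was so for most peaks of the whole lists. After hepatectomy 1 of the 30 peaks of 6 h had a counterpart in basal liver (3.33%, 0.0844 to 17.2%), beside 10.9% of the list. A counterpart at 48 h was found for 4 of the 30 (13.3%, 3.76 to 30.7%), beside 28.9% of the list and 27.2% at the members' rank bins. In the other direction all 5 peaks of 48 h lay on peaks of 6 h, beside 91.0% of the list. After sham 1 of the 26 peaks of 6 h, Orm site 6, had a counterpart in basal liver, beside 10.5% of the list, and the same 1 of 26 at 48 h (3.85%, 0.0973 to 19.6%), beside 19.4%. For the 6 h peaks, each list share for basal liver and 48 h lay inside the interval of the loci. Every share of the loci was the lower one, though. At 48 h the list shares of 28.9% and 19.4% lay close to the upper limits of 30.7% and 19.6%. The intervals also treat neighbouring peaks as independent. A faster or fuller loss than over the list was therefore not established with this number of peaks. The counts depended on list length. When each list was limited to its 2482 highest-scoring peaks, the length of the basal list, 1 peak was left in the windows in the 6 h hepatectomy library and 1 in the sham library, both at Hp site 9, against 1 in basal liver, at Orm site 6. At 48 h this left 2 peaks after hepatectomy (Orm site 6 and Saa site 1) and 1 after sham (Orm site 6), so the 6 h lists no longer held the most peaks.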

How the data were processed

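The files analysed were 8 lists of XBP1 ChIP-seq peaks, 1 per library. The basal input library was not used here. The authors used Bowtie2, MACS 1.4.2 and the mm9 build, per the submitters' processing notes. Settings and the role of the input were not given in the sources. The score deposited by the authors for each peak was read, from its values, as −log10 p (−log10 of a p-value): the lowest scores lay between 4.33 and 5.27. With the highest scores left out, between 21.5% and 63.1% of the scores per list fell on the steps of −log10 Poisson tail probabilities. On the steps of 10 times −log10 it was 7.18% to 22.5%. The Poisson rate was picked for the most matches, and the second scale has fewer steps in that range. This contrast is therefore weak support for the scale.

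Windows, given on mm9, took peaks by midpoint. Peaks overlapping by at least 1 bp were counterparts; shares have Clopper-Pearson 95% intervals. Sites were named by rule: all at Saa, and elsewhere the best-ranked and those found after silencing; the remaining sites were added. The members and lists were chosen with earlier results of these data known. Python 3.11.15, NumPy 2.4.6, pandas 2.3.3, SciPy 1.17.1, Biopython 1.88 and matplotlib 3.10.9 were used. Overlap counting was tested on simulated data with bedtools 2.31.1. Counts of peaks near other acute-phase genes were not run, since no mm9 annotation was used here.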

Additional observations from a re-analysis of the deposited data

How the results depend on the processing

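No paired analysis was possible because each condition had 1 library, and for the same reason no replicate could be left out. Requiring a score of at least 10 left 1 peak in the 3 windows in the silenced 6 h library, against 4, and 2 peaks 48 h after hepatectomy, against 5. Limiting lists to the 2482 highest-scoring peaks left 1 peak in the silenced 6 h library, 1 in the hepatectomy and 1 in the sham library of 6 h, and 2 at 48 h after hepatectomy. Between equal numbers of highest-scoring peaks, 33.3% of the 3 hepatectomy peaks left had a counterpart after silencing. For basal liver the share was 0% of the 1 peak left from either 6 h library. Where a shared part of at least 50% of each peak was required, 40.0% of the 48 h hepatectomy peaks had a counterpart at 6 h, where widths differ. With tiles placed at shifted positions, 0.0266% of tiles held as many peaks as the Hp window. Except for the last, these settings count fewer peaks or ask for more overlap. Why any of these values moved was not tested. The other 97 combinations of a main count or share with an alternative stayed within 1.5 times the count or inside the interval. They include counts of 0 in silenced basal and silenced 48 h liver, which a stricter filter cannot change. Tile shares of single loci and the rank-bin readings are also among them, and intervals of shares from few peaks were wide. Of the other results for single loci, 18 combinations moved and 152 did not. Unknown depth and 30 or fewer peaks per library limit all shares.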

Other observations

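Site 1 of the Saa window and site 6 of the Orm window were the best-ranked sites of their clusters in both unsilenced 6 h libraries, and each was also found 48 h after hepatectomy. The best-ranked Hp site, site 9, was not, whereas Hp site 1, at 25.1% of the list after hepatectomy and 18.8% after sham, was.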
